A study of Mus musculus with 6 samples.

Results

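The genes described here are 10 regulators of naive pluripotency, the ground state of mouse embryonic stem cells: Esrrb, Klf2, Klf4, Klf5, Tfcp2l1, Nr0b1, Tbx3, Tcl1, Prdm14 and Nr5a2. They were chosen by name, and all 10 of 10 were measured among the 18194 genes of the array. Together they had 24 probe sets with a single gene symbol, and the probe set with the highest mean over the 6 arrays stood for each gene. Expression was measured on Affymetrix arrays in cultures from the testes of male ICR mice aged 3 to 5 days, with 2 arrays for each of 3 kinds of culture. SSC are unipotent germ-line spermatogonial stem cells, the cells that sustain sperm production. iSSC are spermatogonial stem cells that the labels call intermediate, and mSSC are those called multipotent. No genotype, transgene or added factor distinguishes the groups in the labels. All cultures began in serum-free germ stem cell medium. Clumps from early (0 to 1) and middle (9 to 10) passages were moved onto mouse embryonic fibroblasts whose division mitomycin had stopped. Colonies with a flattened or embryonic stem cell-like shape either stayed in that medium or moved to a serum-free embryonic stem cell medium, and the labels do not say which arrays came from which medium or passage, nor how colonies were assigned to a kind. Nor is it stated that the 2 arrays of a kind hold separate cultures or animals. The p-values therefore reflect the spread among these arrays alone, which may be technical.

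In naive embryonic stem cells a core of Oct4, Sox2 and Nanog works together with a second layer of transcription factors that keeps the cells free of lineage bias. The cytokine Lif, through Stat3, sustains Klf4 and Tfcp2l1, while Wnt signalling relieves Esrrb, Klf2, Nr0b1 and Tfcp2l1 from repression by Tcf7l1. These factors fade when cells pass to the primed state of the later epiblast. Of the 10, Tcl1 does not itself bind DNA as a classical transcription factor: it is a cofactor of the kinase Akt. Spermatogonial stem cells express part of the pluripotency machinery, Oct4 included, without being pluripotent.

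Values are log2 signals, in which a difference of 1 is 2-fold, and levels are compared only within a probe set. As a guide to background, genes under an array's lower quartile (4.23 to 4.38) are called near background. Between the 2 arrays of a kind, 10.2% of genes differed by more than 2-fold in SSC, 1.62% in iSSC and 7.71% in mSSC. Germ line markers had medians of 9.37 and 10.06 in the SSC arrays, 10.52 and 10.57 in iSSC and 8.01 and 7.57 in mSSC. Core pluripotency factors had medians of 7.53 and 7.86 in SSC, 7.68 and 7.82 in iSSC and 11.73 and 11.89 in mSSC, and Nanog, a defining member, was below the lower quartile in every SSC and iSSC array. In bulk samples such as these, fewer cells of a type and less RNA per cell cannot be told apart.

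The first question is whether the naive factors differ between multipotent and unipotent cultures. In mSSC 9 of the 10 were higher than in SSC, and none was lower. The increases ran from 1.63 for Tcl1 to at least 6.90 for Nr0b1, and Klf4 alone was not called. A gene was called at an adjusted p under 0.05 in limma, and by that rule 8.22% of all genes were higher in mSSC and 10.6% lower, 18.8% in all. Of these calls 43.6% were higher, and 63.8% after the arrays were centred on their medians. None of the 10 was lower at an unadjusted p under 0.05 either, and 10 were higher. The shares above do not apply at this looser threshold, which Klf4 passed while ranked 5325 by p among all 18194 genes. The median difference of the 10 factors was 3.74, also with near-background members at their bounds, beside 0.077 over all genes. Both mSSC arrays lay above both SSC arrays for all 10, as they did for 32.3% of all genes, and below for none of the 10 and 26.3% of all genes.

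**Figure D1:**
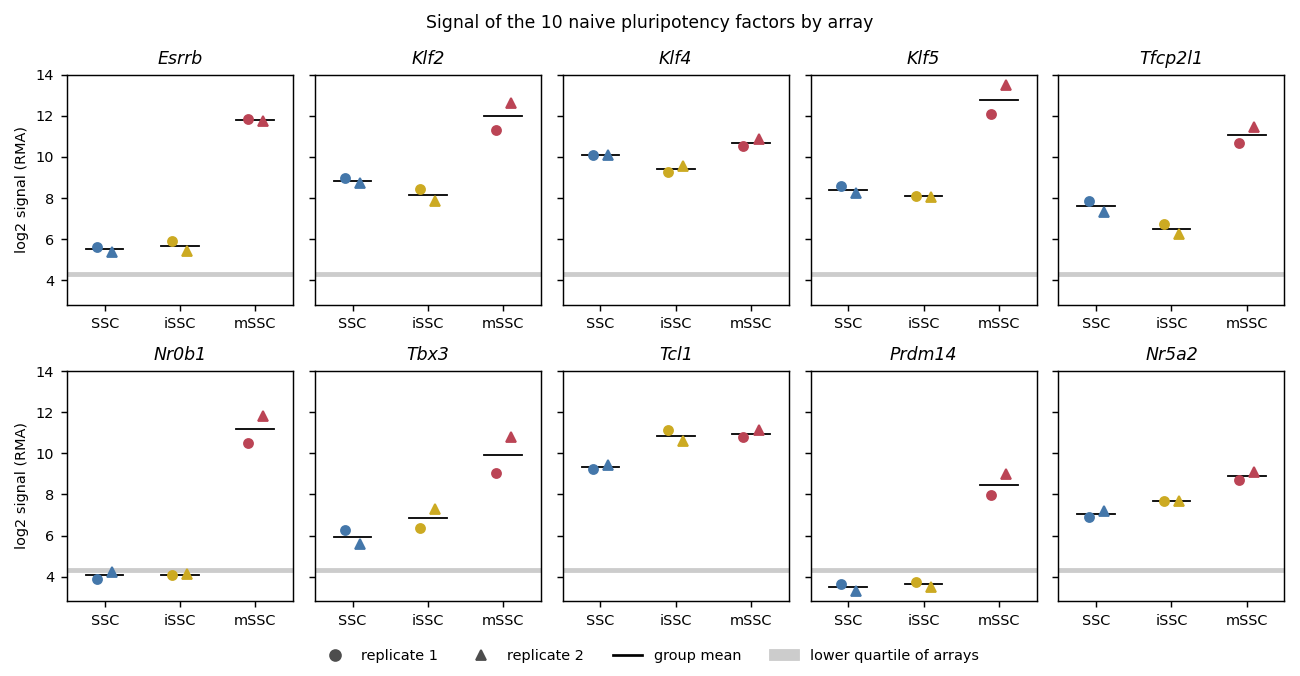
Log2 signal of each factor (vertical axis, RMA values) in SSC, iSSC and mSSC (horizontal axis). Circles are replicate 1, triangles replicate 2 and black bars the mean of 2 arrays; the grey band spans the lower quartiles of the arrays, 4.23 to 4.38. Esrrb, Nr0b1 and Prdm14 sit high in mSSC alone, Tcl1 is high in both iSSC and mSSC, and Klf4 varies least between kinds.

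Esrrb, Nr0b1 and Nr5a2 belong to the nuclear receptor family. Esrrb, an orphan receptor that sustains self-renewal, had signals of 5.64 and 5.36 in SSC, 5.93 and 5.41 in iSSC and 11.83 and 11.75 in mSSC. The SSC and iSSC arrays overlapped, and both mSSC arrays stood far above them within 0.079 of each other. Esrrb was 78.4-fold higher in mSSC than in SSC (6.29 ± 0.25, SE, adjusted p = 0.00021, limma), the increase ranked 13 among all genes. Nr0b1, also called Dax1, lacks the DNA-binding domain usual in its family and acts on other receptors. It read 3.91 and 4.21 in SSC, 4.06 and 4.14 in iSSC and 10.52 and 11.83 in mSSC. It was thus near background in both other kinds, and its difference has only a lower bound, in which the lower quartile of each dim array stands for the dim signal. By that bound Nr0b1 was at least 119-fold higher in mSSC than in SSC (at least 6.90). The bound itself was not tested, and the fit on the measured signals gave an adjusted p of 0.00062 (limma). Nr5a2, known to bind regulatory regions of Pou5f1, the Oct4 gene, had the smallest rise of these receptors. Its signals were 6.91 and 7.22 in SSC, 7.70 and 7.66 in iSSC and 8.71 and 9.09 in mSSC. No 2 kinds overlapped, and Nr5a2 was 3.58-fold higher in mSSC than in SSC (1.84 ± 0.24, adjusted p = 0.0054, limma).

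The sequences before the transcription starts of Nr0b1 and Esrrb are shown because these genes had the largest differences of the 10 between mSSC and both other kinds. RefSeq (GRCm38.p6) held promoters for 7 of the 10 genes and 9 starts, against 32851 starts in all. Capitals mark matches to TATAAA in Nr0b1 and, on the opposite strand, to TTCCNNGAA in Esrrb, the latter a pattern that Stat3 can bind. Nr0b1 is on chromosome X (chrX:86191525-86191774, plus strand) and the Esrrb start shown is on chromosome 12 (chr12:86360867-86361116, plus strand).
Nr0b1: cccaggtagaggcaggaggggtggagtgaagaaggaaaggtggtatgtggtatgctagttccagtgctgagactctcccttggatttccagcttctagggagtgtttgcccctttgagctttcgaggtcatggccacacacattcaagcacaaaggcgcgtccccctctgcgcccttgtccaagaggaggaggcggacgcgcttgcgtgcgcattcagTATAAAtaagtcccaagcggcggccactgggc
Esrrb: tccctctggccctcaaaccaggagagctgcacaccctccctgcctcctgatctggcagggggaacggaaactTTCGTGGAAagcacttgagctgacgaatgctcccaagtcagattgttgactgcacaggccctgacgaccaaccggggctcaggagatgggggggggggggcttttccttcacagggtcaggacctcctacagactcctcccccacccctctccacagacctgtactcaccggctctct
The Nr0b1 match to TATAAA began 32 bases before the start. TATAAA was found in the 250 bases before 12.4% of all starts on either strand, and on the forward strand from 40 to 21 bases before 1.87% of them. TTCCNNGAA was found before 4.06% of starts, and the other Esrrb start (chr12:86421394-86421643) held none of the motifs searched. These matches describe letters and say nothing of binding.

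Klf2, Klf4 and Klf5 are zinc finger factors that share targets in embryonic stem cells, where the loss of any single member is largely covered by the others. Klf5 read 8.56 and 8.22 in SSC, 8.10 and 8.06 in iSSC and 12.07 and 13.50 in mSSC. It was higher in mSSC than in SSC by 4.39 ± 0.45 (adjusted p = 0.0028, limma). Klf2 read 8.96 and 8.71 in SSC, 8.42 and 7.85 in iSSC and 11.33 and 12.63 in mSSC. Its rise over SSC was 8.85-fold (3.15 ± 0.45, adjusted p = 0.0072, limma). For both, the SSC and iSSC arrays were above the lower quartile and the mSSC arrays did not overlap them. Klf4, a factor used to reprogram somatic cells, was above the lower quartile in every array. It read 10.07 and 10.08 in SSC, 9.27 and 9.56 in iSSC and 10.52 and 10.86 in mSSC. The difference of mSSC from SSC was 0.62 ± 0.23 (95% interval 0.063 to 1.17, adjusted p = 0.12, limma), so a rise as large as that of Klf2 or Klf5 lay outside its interval. When the arrays were centred on their medians it was 0.87 (adjusted p = 0.041), a scaling that moved the median difference of all genes from 0.077 to 0.33.

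Tfcp2l1, a CP2 family factor downstream of Lif and Wnt, read 7.86 and 7.32 in SSC, 6.72 and 6.27 in iSSC and 10.66 and 11.47 in mSSC. It was 11.1-fold higher in mSSC than in SSC (3.48 ± 0.35, adjusted p = 0.0027, limma), and iSSC lay below SSC without overlap. Its promoter is shown because it held more of the motifs searched than that of any other of the 7 genes (chr1:118627695-118627944, plus strand, GRCm38.p6). Capitals mark 2 matches to GGGCGTGG on the opposite strand, a sequence of the kind Klf factors bind, and TATAAA.
Tfcp2l1: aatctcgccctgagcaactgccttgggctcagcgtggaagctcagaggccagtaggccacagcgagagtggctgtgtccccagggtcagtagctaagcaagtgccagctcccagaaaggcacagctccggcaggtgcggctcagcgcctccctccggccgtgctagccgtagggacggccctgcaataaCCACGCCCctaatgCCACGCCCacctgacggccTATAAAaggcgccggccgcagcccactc
The GGGCGTGG matches began 61 and 47 bases before the start and TATAAA 28 bases before it. At least 1 match to GGGCGTGG was found before 4.79% of all starts, and 2 or more before 0.615%. A single match stood in the promoter of 1 of the 2 Nr5a2 starts. The other Klf sequence searched, GGGTGTGG, the receptor sequence AAGGTCA and the octamer ATGCAAAT matched none of the 9 promoters and were found before 3.20%, 4.08% and 1.60% of all starts.

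Prdm14, a PR domain factor that restrains Fgf signalling and DNA methylation in naive cells and helps to specify germ cells in the embryo, was near background outside mSSC. Its signals were 3.65 and 3.33 in SSC, 3.76 and 3.51 in iSSC and 7.98 and 8.97 in mSSC. By the same kind of bound, likewise untested, it was at least 18.3-fold higher in mSSC than in SSC (at least 4.19). The fit on the measured signals gave an adjusted p of 0.0010 (limma). Tbx3, a T-box factor of the Lif response, read 6.26 and 5.58 in SSC, 6.38 and 7.27 in iSSC and 9.06 and 10.80 in mSSC. It was 16.1-fold higher in mSSC than in SSC (4.01 ± 0.61, adjusted p = 0.0087, limma) and had the widest spread of the 10 between the mSSC arrays. Both genes kept their mSSC arrays apart from all others.

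Tcl1 differed from this pattern. It read 9.22 and 9.41 in SSC, 11.12 and 10.59 in iSSC and 10.78 and 11.11 in mSSC. The iSSC and mSSC arrays overlapped and all 4 lay above both SSC arrays. Tcl1 was 3.10-fold higher in mSSC than in SSC (1.63 ± 0.27, adjusted p = 0.011, limma). Between mSSC and iSSC the difference was 0.088 ± 0.27 (95% interval -0.55 to 0.73, adjusted p = 0.88, limma). Its promoter is shown as that of the member with a profile of its own, and held none of the motifs searched (chr12:105222738-105222987, minus strand, GRCm38.p6).
Tcl1: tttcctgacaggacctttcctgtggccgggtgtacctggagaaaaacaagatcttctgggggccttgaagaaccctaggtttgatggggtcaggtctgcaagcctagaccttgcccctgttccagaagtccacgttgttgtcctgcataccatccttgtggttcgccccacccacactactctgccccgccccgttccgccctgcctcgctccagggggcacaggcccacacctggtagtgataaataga
In base composition the promoters of the 7 genes ranged widely. Those of Klf4 and Klf2 had 74.0% and 71.2% G and C with 32 and 29 CpG pairs in 250 bases. The Nr5a2 starts had 43.2% and 49.6% with 2 and 6 pairs, and the medians over all starts were 52.4% and 6.

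The comparison of iSSC with SSC asks whether the naive factors had begun to change in the intermediate cells. Here 1 of the 10 was called, Tcl1, which was 2.92-fold higher in iSSC (1.55 ± 0.27, adjusted p = 0.048, limma). Over all genes 0.225% were called higher in iSSC and 1.87% lower, 2.09% in all. None of the 10 was called lower in limma. At an unadjusted p under 0.05 in limma, a looser threshold to which those shares do not apply, 2 factors were higher and 2 lower. The higher ones were Tcl1 and Nr5a2, and the lower ones were Tfcp2l1 and Klf4. Of these Nr5a2 had the largest p and ranked 2650 by p among all 18194 genes, so at least that many passed. The Tcl1 call was narrow: its difference stayed between 1.28 and 1.81 but its adjusted p was 0.052 to 0.36 under 12 of the 16 other settings and array sets tried. Without SSC replicate 1, SSC replicate 2, iSSC replicate 1 and iSSC replicate 2 it was 0.14, 0.067, 0.36 and 0.19. Without either mSSC array it was 0.054. In this comparison no gene of the array at all was called without SSC replicate 1, iSSC replicate 1 or iSSC replicate 2, so every call of iSSC against SSC given here and below, Zfp281 and Lif included, depends on those arrays.

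Several factors were lower in iSSC than in SSC in value. Tfcp2l1 differed by -1.10 ± 0.35 (adjusted p = 0.20, limma), Klf4 by -0.66 ± 0.23 (adjusted p = 0.23) and Klf2 by -0.70 ± 0.45 (adjusted p = 0.50). With Klf5 (-0.31 ± 0.45) these were the 4 factors whose iSSC arrays both lay below both SSC arrays, which held for 17.7% of all genes. Tbx3 (0.91 ± 0.61) and Nr5a2 (0.62 ± 0.24, adjusted p = 0.26) were higher in iSSC in value, and with Tcl1 they were the 3 whose arrays lay above, which held for 32.3% of genes. On their other probe sets the differences were smaller, 0.058 to 0.10 for Nr5a2 and -0.020 to 0.48 for Tbx3. In none of the other Nr5a2 probe sets did both iSSC arrays lie above both SSC arrays. The second Klf4 probe set differed by -1.35 ± 0.51. Esrrb, Nr0b1 and Prdm14 overlapped between these kinds. Esrrb differed by 0.17 (95% interval -0.45 to 0.78), and for Nr0b1 and Prdm14, near background in both kinds, no difference is read. The median of the 10 was 0.096, beside 0.10 over all genes.

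**Figure D2:**
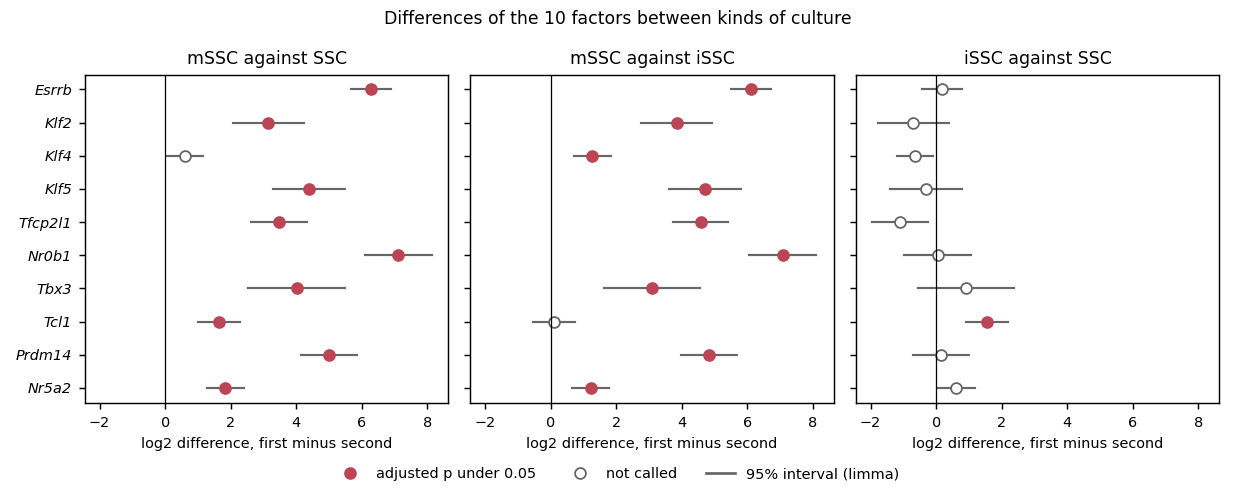
Log2 difference (horizontal axis, first kind minus second) of each factor (vertical axis) in the 3 comparisons, with 95% intervals from limma on 2 arrays per kind. Filled points were called at an adjusted p under 0.05. Against SSC and against iSSC the fitted mSSC differences are largest for Nr0b1, although those of Nr0b1 and Prdm14 have only the lower bounds given in the text, while those of iSSC against SSC lie between -1.10 and 1.55.

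mSSC were then set against iSSC, which shares the mSSC arrays with the first comparison. Again 9 of the 10 were called higher in mSSC and none lower, against 7.53% of all genes called higher and 9.6% lower, 17.1% in all. Of these calls over all genes 44.0% were higher, and 56.9% after median centring. At an unadjusted p under 0.05, a looser threshold to which those shares do not apply, 9 factors were higher and none lower. The member not called was now Tcl1. Esrrb differed by 6.13 ± 0.25. Nr0b1 and Prdm14, near background in iSSC, were higher by at least 6.88 and at least 4.18. Klf5 was 26.1-fold higher, Tfcp2l1 23.8-fold and Klf2 14.4-fold. Klf4 was called here, at 2.42-fold (1.27 ± 0.23, adjusted p = 0.015, limma). Tbx3 was higher by 3.10 ± 0.61 and Nr5a2 by 1.22 ± 0.24. The second Klf4 probe set was not called (1.64 ± 0.51, adjusted p = 0.10, limma over all probe sets). Nor was any of the other Tbx3 probe sets, with differences of 0.38 to 3.73. The median of the 10 was 4.21, or 4.02 with those bounds, beside -0.0084 over all genes, and the mSSC arrays lay above both iSSC arrays for 9 factors and for 29.6% of all genes. They lay below for no factor and for 33.2% of genes. Calls for Klf4 and Nr5a2 were lost without iSSC replicate 1, iSSC replicate 2 or mSSC replicate 2, and the call for Tbx3 without either iSSC array. Their adjusted p was then between 0.056 and 0.13.

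By these tests the order of levels was mSSC above SSC and iSSC for Esrrb, Klf2, Klf5, Tfcp2l1, Nr0b1, Tbx3, Prdm14 and Nr5a2, with SSC and iSSC not distinguished. For Tcl1 it was mSSC and iSSC, not distinguished, above SSC, although its call in iSSC over SSC was the narrow one described above. For Klf4 it was mSSC above iSSC, with SSC between them and not distinguished from either, on the probe set standing for the gene alone.

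The mSSC arrays differed from each other in these genes. mSSC replicate 2 exceeded replicate 1 for 9 of the 10, Esrrb being the exception, as it did for 39.7% of all genes. The median excess was 0.89, beside -0.10 over all genes. It was more than 2-fold for Tbx3 (1.74), Klf5 (1.43), Nr0b1 (1.31) and Klf2 (1.31). Within SSC and iSSC no factor differed more than 2-fold between arrays on the probe set standing for it. Some other probe sets did. A further Tbx3 probe set read 6.06 and 4.15 in SSC and 4.26 and 6.12 in iSSC. The second Klf4 probe set read 11.13 and 9.56 in SSC. Among the core pluripotency factors 5 of 11 were higher in mSSC replicate 2, at a median of -0.041, and among other naive network genes 8 of 12 were, at 0.50. Fibroblast markers were also higher in mSSC replicate 2, in 12 of 13 genes at a median of 1.80, and their part in the excess was not tested.

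Probe sets other than the ones used gave a check for 6 of the 10 genes, with 14 probe sets in all. Klf2, Nr0b1, Prdm14 and Tcl1 had 1 probe set each and so no such check. In mSSC against SSC 5 of the 14 were called higher, none lower and 9 not, when all 34958 probe sets were tested, of which 5.92% were higher. None of the 14 was lower at the differences measured, which ran from 0.047 to 3.82. The other 2 Esrrb probe sets rose by 3.74 and 1.97, and 2 of the 3 for Nr5a2 by 2.48 and 1.30. For Klf5 1 of 2 rose, by 2.45, and the second stayed at 3.75 to 4.02 in every array, near background. The 2 further Tfcp2l1 probe sets were likewise near background in every array, between 3.26 and 3.77, so the Tfcp2l1 result also rests on 1 probe set. None of the 4 further Tbx3 probe sets was called, although 3 had differences of 2.00 to 3.82. Averaging all probe sets of a gene kept the 9 calls but lowered several values by more than 1.5 times: Esrrb to 4.00, Klf5 to 2.30, Tbx3 to 2.44 and Tfcp2l1 to 1.27. In mSSC against iSSC 5 of the 14 were called higher and none lower, beside 6.14% and 6.11% of all probe sets. In iSSC against SSC none of the 14 was called, where 0.0114% of all probe sets were higher and 0.203% lower.

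The second Klf4 probe set varied more than the first. It read 11.13 and 9.56 in SSC, 8.85 and 9.14 in iSSC and 10.45 and 10.82 in mSSC. SSC replicate 1 was here the highest of all 6 arrays, and the difference of mSSC from SSC was 0.29 ± 0.51 (adjusted p = 0.76, limma). SSC replicate 1 also had the highest median of the macrophage (11.85, against 11.01 in replicate 2) and fibroblast markers (12.27, against 11.61). Their part in the Klf4 signal was not tested.

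**Figure D3:**
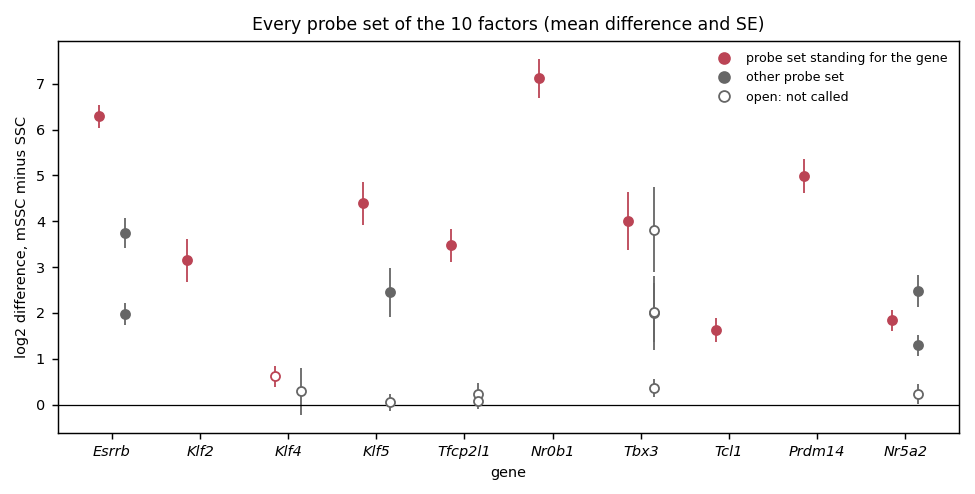
Log2 difference of mSSC from SSC (vertical axis, with SE) for every probe set of the 10 genes (horizontal axis). Red points are the probe sets standing for a gene, grey points the other 14, and filled points were called over all 34958 probe sets. Tfcp2l1 is called in 1 of its 3 probe sets and Tbx3 in 1 of 5.

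Other members of the same gene families were set beside the 10 factors, in mSSC against SSC, where 8.22% of all genes rose and 10.6% fell. With lists this short, counts of 1 are near those shares. Of 13 further Klf genes 4 rose and 1 fell, with a median of 0.45. Klf3 rose by 2.45 ± 0.30, Klf15 by 2.48 ± 0.34 and Klf10 by 1.44 ± 0.25, and Klf1 was at 0.16. Klf9, which rose by 1.45, and Klf7, which fell by 1.81, were picked out after their values were known. The rises of Klf3, Klf15, Klf9 and Klf10 lay under those of Klf2 and Klf5 and above the uncalled difference of Klf4 (0.62). Of 7 further nuclear receptors 1 rose, Nr6a1, a germ cell receptor that silences Oct4 during differentiation, by 1.29 ± 0.32. Nr0b2, the closest relative of Nr0b1, was at -0.013. Of 14 T-box genes 1 fell, Tbx15 (-2.20 ± 0.46), and none rose, with Tbx5 at 0.0025. Of 5 relatives of Tfcp2l1 1 rose, the epithelial factor Grhl3 (2.14 ± 0.43), and Tfcp2 was at -0.42. Of 11 Prdm genes Prdm1, which with Prdm14 specifies germ cells, rose by 2.84 ± 0.47, and Prdm16 fell by 3.43 ± 0.27. The 4 measured relatives of Tcl1 were not called, lying between -0.24 and 0.21. The T-box, Tcl1, nuclear receptor and Prdm medians were 0.084, 0.084, -0.013 and -0.097, beside 0.077 over all genes, and that of the Tfcp2l1 relatives was 0.55.

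**Figure D4:**
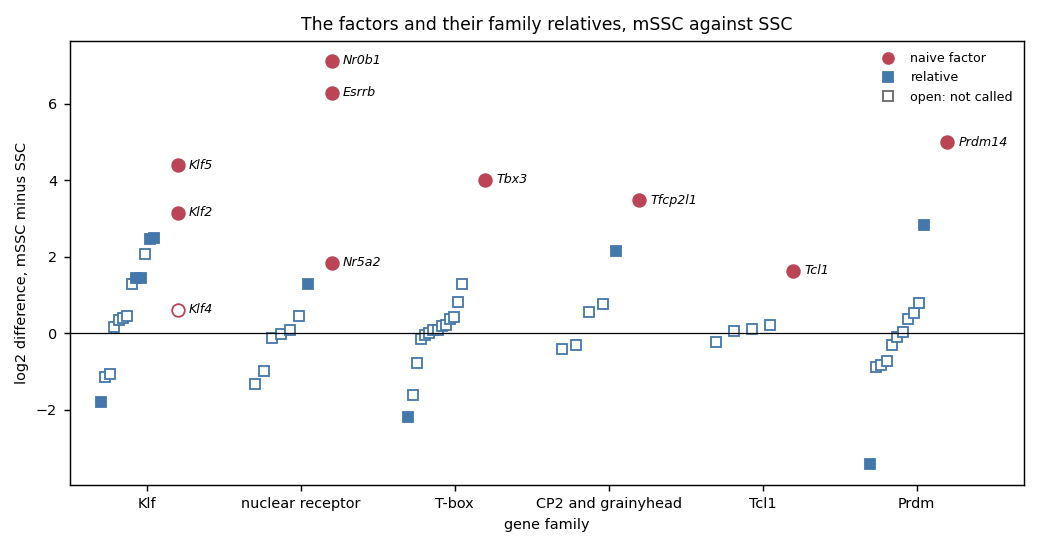
Log2 difference of mSSC from SSC (vertical axis) for the 10 naive factors (red circles, named) and other members of their gene families (blue squares), by family (horizontal axis). Open symbols were not called. In the T-box, Prdm, Tcl1, nuclear receptor and Tfcp2l1 families each naive factor lies above every relative shown, and in the Klf family Klf4 does not.

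The wider pluripotency network gave a setting for the 10 factors. In mSSC against SSC 8.22% of all genes rose and 10.6% fell, and counts of 1 or 2 in lists this short are near those shares. In iSSC against SSC 0.225% of all genes rose and 1.87% fell. Of 11 core factors measured 10 rose in mSSC over SSC and 1 did not pass, Zfp281 (0.090 ± 0.28). Of 12 other naive network genes 10 rose and none fell, with a median of 2.87. The growth factor gene Fgf4 rose by 3.50 ± 0.23, Dppa5a by 4.74 ± 0.34 and Fbxo15 by 4.73 ± 0.36, and Klf17 was at 1.28 ± 0.61. Of 11 primed epiblast genes 5 rose, 2 fell and 4 did not pass, with a median of 1.23. Nodal, a ligand of the epiblast, rose by 5.13 ± 0.28 and Otx2, a factor of the primed state, by at least 5.17 from near background, whereas Sox3 fell by 2.74 ± 0.32 and Fgf5 was at 0.22 ± 0.22. In iSSC against SSC the core list had 1 lower member, Zfp281 (-2.24 ± 0.28, adjusted p = 0.029, limma), and neither the other naive genes nor the primed genes had a called member.

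Signalling inputs and partners of the factors moved in both directions. Of 15 measured, 2 rose and 5 fell in mSSC over SSC, beside 8.22% and 10.6% of all genes, with a median of -0.093. Bmp4, a ligand that supports self-renewal beside Lif, rose by 3.34 ± 0.39. The kinase Jak1, which relays the Lif signal, fell by 1.98 ± 0.25, and Akt1, the kinase that Tcl1 assists, fell by 1.99 ± 0.33. Ctnnb1, the Wnt effector, was at -0.093. The other called genes of this list were picked out after their values were known. Stat3 fell by 1.51 ± 0.31 (adjusted p = 0.022, limma) and Tcf7l1 rose by 1.74 ± 0.30 (adjusted p = 0.012). The Lif receptor subunit Il6st fell by 1.47 ± 0.28 and Akt2 by 1.16 ± 0.23. Lif was higher in iSSC than in SSC by 1.74 ± 0.26 (adjusted p = 0.037) and lower in mSSC than in iSSC by 1.61 ± 0.26 (adjusted p = 0.011).

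Markers of other cells moved between the same samples. In mSSC against SSC 8.22% of all genes rose and 10.6% fell, and counts of 1 in lists this short are near those shares. Of 12 macrophage markers 12 fell in mSSC against SSC, with array medians of 11.01 to 11.85 in SSC, 8.73 to 9.38 in iSSC and 4.93 to 5.09 in mSSC, in which C1qb and Ptprc were below the lower quartile, Ptprc being picked out after its values were known. Of 13 fibroblast markers 10 fell, with medians of 11.61 to 12.27, 9.66 to 9.71 and 7.39 to 8.49, and none was below the lower quartile in any kind. Of 12 Sertoli cell markers 9 fell and 1 rose, and of 12 germ line markers 10 fell and 1 rose. Of 7 epithelial markers 4 rose, with medians of 5.71 to 6.21 in SSC, 7.00 to 7.68 in iSSC and 8.94 to 9.48 in mSSC. Of 9 trophoblast markers 1 rose, and Elf5 was below the lower quartile in every array. The 4 Leydig cell markers measured had no called member. The part of these cells in the differences of the 10 factors was not tested.

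For each factor the 2 genes with the most similar profile were found from the root mean square difference of log2 signals over the 6 arrays, after the mean of each gene was taken off. This is a description of 6 arrays, in which many genes that separate mSSC from the rest look alike. Nr5a2 was closest to Rabggtb (0.043) and Zfp296 (0.077), and Klf4 to Ric1 (0.088) and Slc25a36 (0.11). Tcl1, with its rise in iSSC, was closest to Slc38a4 (0.11) and Tigar (0.13). Esrrb was closest to Lrrc34 (0.15) and 1700019D03Rik (0.24), and Nr0b1 to L1td1 (0.29) and Mymx (0.42). Klf2 was closest to Kcnk1 (0.14) and Bmp4 (0.26), and Tfcp2l1 to Bcat1 (0.26) and again Kcnk1 (0.29). Klf5 was closest to Amph (0.22) and Apoc1 (0.25), Prdm14 to AU018091 (0.25) and Cntnap2 (0.26), and Tbx3 to Gjb5 (0.34) and Cdyl2 (0.36). Among the 10 themselves the nearest pairs were Klf5 with Prdm14 (0.29) and Klf2 with Tfcp2l1 (0.34). Prdm14 and Nr0b1 were near background in SSC and iSSC, where differences are compressed, so their distances to other genes rest partly on background signal.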

How the data were processed

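The deposited values are log2 signals that the authors made with RMA, per the submitters' processing notes. RMA removes background, quantile-normalizes the arrays and gives 1 value per probe set, and its version was not stated. Such values compress differences of dim genes. Of 45101 probe sets 34958 had 1 gene symbol, 932 several and 9211 none in the probe table. Matched by gene identifier to RefSeq, 34754 had an entry. No filter or further scaling was applied, and 0 value columns were left out.

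Each comparison is a contrast in 1 model of group means over 6 arrays, fitted with limma 3.58.1 (R 4.3.3), with moderated variances, 2-sided, with Benjamini-Hochberg adjustment over all 18194 genes. The SE draws on all 3 kinds of culture and on 3 residual degrees of freedom before moderation. The fit was tested on simulated data. The 10 members and all gene lists were chosen with earlier results of these data known, so list counts are descriptions. Members were all described; of each list at most the 3 genes with the smallest p in mSSC against SSC and the 1 with the largest are named, and any further gene is marked in the text as picked later. Lists share Klf17 and Eomes. Some listed genes had no value here. Motifs were searched on both strands in the 250 bases before each RefSeq start. The settings tried were a replicate block, fits on 4 arrays, other variance models, a filter on dim genes, other scalings and probe set rules, a 2-fold minimum and leaving out each array.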

Additional observations from a re-analysis of the deposited data

How the results depend on the processing

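The 9 calls of mSSC over SSC were 9 again with the replicate block, on 4 arrays, with other variance models, after quantile normalization, with other probe set rules, with a 2-fold minimum and without each array in turn (9 to 9). They were 10 after median centring, through Klf4, and 7 among the brighter genes, where Nr0b1 and Prdm14 were too dim to be tested. That filter kept genes with a mean over all 6 arrays above 7.30. Esrrb and Tbx3, with SSC and iSSC means below 7.30, passed it only through their mSSC arrays. Their calls under it, against SSC or iSSC, are therefore no separate support. Tfcp2l1 in iSSC (6.49) and Nr5a2 in SSC (7.06) also had means below 7.30. Of mSSC over iSSC 9 were called, 7 among the brighter genes and 6 to 9 without an array. The single call of iSSC over SSC, Tcl1, went to 0 with the replicate block, on 4 arrays, after quantile normalization and after median centring. It did so too with probe sets averaged and with every probe set tested on its own. Each of these settings had 1 or 2 factors higher and 1 to 3 lower at an unadjusted p under 0.05 in limma. The call was also lost when any single array was left out. The cause was not tested. Same-numbered arrays deviated together weakly, with correlations across genes of 0.12, 0.068 and 0.17. Since 1 of the 3 was under 0.1 and the labels do not tie the numbers to a shared source, they were not treated as pairs. The replicate block moved the calls over all genes in iSSC against SSC from 41 higher and 340 lower to 10 higher and 138 lower and ended the Tcl1 call (adjusted p = 0.083); it changed no other call of the 10.

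Some uncalled differences, among them fitted ones of genes near background, changed sign. Nr0b1 in iSSC against SSC was -0.045 after quantile normalization and -0.11 to 0.19 without an array. Without an array Esrrb was -0.093 to 0.43 and Prdm14 -0.011 to 0.31 there, and Tcl1 in mSSC against iSSC -0.18 to 0.35. Of 474 differences recomputed under the settings 447 kept direction and side of the threshold. Direction could not change in many of these, because variance models, the replicate block, the dim-gene filter and the 2-fold minimum leave the difference unchanged. Fits on 4 arrays and with every probe set on its own leave it unchanged too. Leaving out an array of the kind not compared repeats the fit on 4 arrays. Over all genes, calls in mSSC against SSC went from 1495 higher and 1930 lower to 816 and 1150 on 4 arrays and, after median centring, to 2527 and 1432. In iSSC against SSC they went to 1 and 28 with probe sets averaged and to 1 and 42 with every probe set on its own. In mSSC against iSSC they went from 1370 and 1747 to 298 and 306 without iSSC replicate 1, and to 370 and 401 without iSSC replicate 2. With 2 arrays per kind the number of arrays limits the precision, and below the lower quartile differences are compressed. A fit without an array assumes that the remaining array of that kind varies as the other kinds do.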
